A study of Homo sapiens with 6 samples.

Results

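The genes described are 5 immediate early genes (EGR1, FOS, JUN, MYC and IER2) and 5 genes of inhibitors that act back on mitogen-activated protein kinase (MAPK) signalling (SPRY2, SPRY4, DUSP4, DUSP5 and DUSP6). They were chosen by symbol, and all 10 were listed among the 20979 symbols of the series. RNA was measured in A172, a human glioblastoma cell line, 1 day after lipid transfection. The transfected RNA was miR-324-5p in duplex form (here 5p duplex), miR-324-3p.1 in duplex form (3p.1 duplex) or control miRNA (control), and each group has 2 libraries. The study asked how the choice between the arms of a microRNA hairpin is regulated, and the duplexes are named for the arms of miR-324. The labels describe no genetic change in any group, and whether replicates came from different cultures is not stated there: each p-value reflects library-to-library spread, which may be technical.

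Immediate early genes are transcribed within minutes of a growth signal, without new protein synthesis, when the kinase ERK activates transcription factors already present on their promoters. Their RNAs are short-lived. Sprouty proteins and dual-specificity phosphatases (DUSPs) are made in response to the same pathway and damp it: Sprouty proteins act between growth factor receptors and RAS, and DUSPs remove phosphate from MAP kinases. In glioblastoma this pathway is often active through growth factor receptors, and steady levels of these RNAs are widely read as a measure of ERK output.

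The mature arms of miR-324 (RefSeq, GRCh38.p14, both on the minus strand) are shown because a duplex can act on a transcript through bases 2 to 8 of its strand, the seed, given in capitals. The labels do not give the sequences of the duplexes that were used, and in particular not where the 3p.1 strand begins.
hsa-miR-324-5p, chr17:7223343-7223364: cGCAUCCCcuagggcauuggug
hsa-miR-324-3p, chr17:7223308-7223330: cCCACUGCcccaggugcugcugg
The arms do not share a seed. The site for the 5p seed is GGGATGC, and the site for the 3p seed as RefSeq places it is GCAGTGG.

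Values are in TPM, which divides by transcript length and by the total of the library, so genes can be compared with each other within a library. The number of reads behind a value cannot be read from TPM, and depth is therefore unknown. Fold changes are on the log2(TPM + 1) scale, which understates the change of low genes, and were tested with limma over the 13400 genes that averaged at least 1 TPM over the 6 libraries. FOS was the 1 gene of the 10 below that minimum. The median TPM of 12 interferon-induced genes was 13.2 and 8.87 with the 5p duplex, 9.07 and 12.5 with the 3p.1 duplex, and 80.6 and 256 in control, so the control libraries stood apart from the others and from each other; what this contributes to the comparisons with control was not tested. In RNA from whole cultures, a lower level per cell and fewer cells that express a gene cannot be told apart. The mesenchymal glioma markers VIM (4788 to 5910 TPM) and CD44 (708 to 929 TPM) were abundant, but of the same list NES stood at 90.9 to 133 TPM, FN1 at 10.1 to 16.6 TPM, CHI3L1 at 1.91 to 2.91 TPM and TNC at 0.14 to 0.46 TPM. Among astroglial genes, S100B and AQP4 were not listed in any library and GFAP reached 0.25 TPM at most. Of the blood or endothelial markers, CD68 stood at 32.7 to 60.2 TPM and PTPRC at 5.52 to 7.48 TPM, while PECAM1, VWF and CDH5 stayed at or below 0.57 TPM.

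Fitted by group without a term for replicate number, none of the 9 genes tested passed the threshold in any of the comparisons (limma, adjusted p under 0.05, where 0.463% of all genes were called for the 5p duplex against control, 0.0149% for the 3p.1 duplex against control and 0.433% for the 5p duplex against the 3p.1 duplex). Counting lower genes alone, the called shares of all genes were 0.425%, 0.00746% and 0.351%. The gene nearest to a call was SPRY2, whose mean with the 5p duplex was 0.548 times the control mean and 0.508 times the mean with the 3p.1 duplex. EGR1 had the next lowest ratios of means with the 5p duplex, at 0.660 times control and 0.581 times the 3p.1 duplex. JUN and MYC were both lower with the 5p duplex than with the 3p.1 duplex, with control in between or at the level of the 5p duplex. SPRY4, DUSP4, DUSP5, DUSP6 and IER2 had intervals that included 0 in every comparison.

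**Figure D1:**
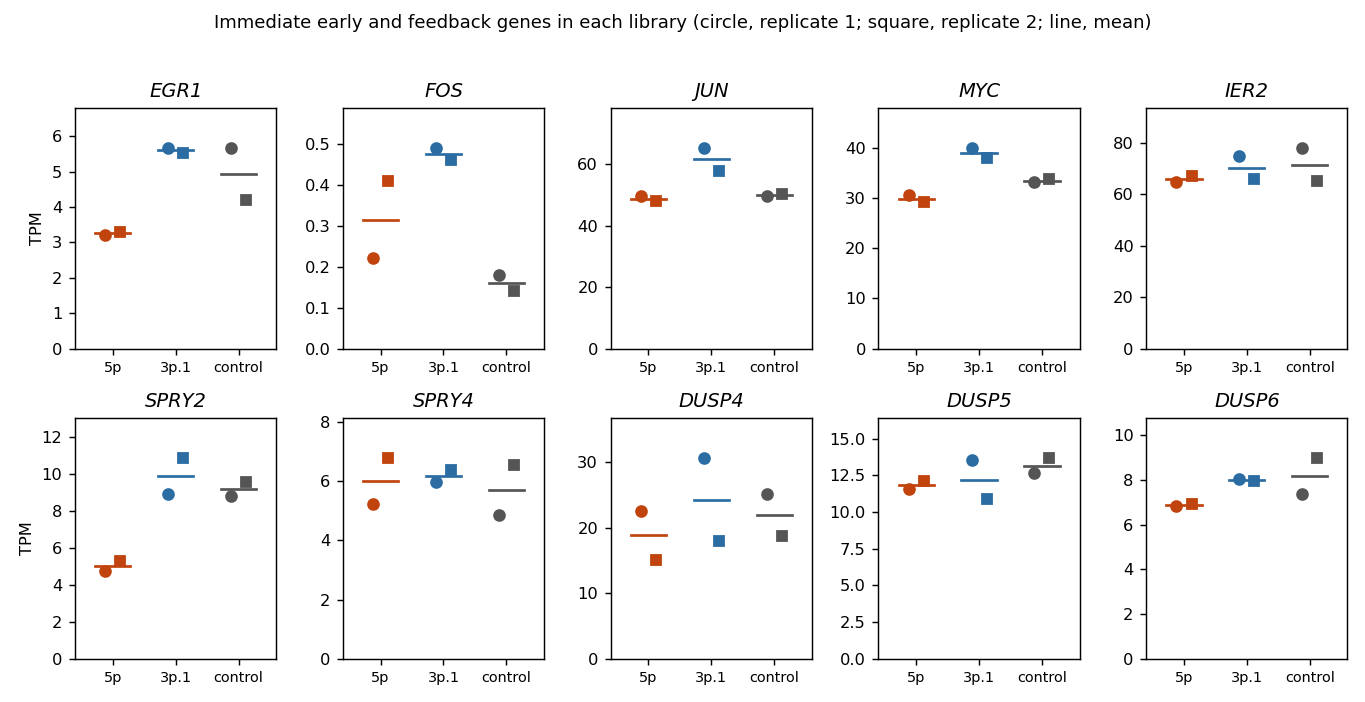
TPM of each of the 10 genes (vertical axes start at 0 and differ between panels) in the 5p duplex, 3p.1 duplex and control libraries; circles are replicate 1, squares replicate 2 and lines the mean of 2. Both 5p duplex libraries lie below the other 4 for EGR1 (3.22 and 3.29 TPM) and SPRY2 (4.77 and 5.30 TPM). They also do so for JUN, MYC and DUSP6, and the share of all genes with this order was not counted. SPRY4 and DUSP4 differ as much within groups as between them.

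SPRY2 encodes Sprouty2, an inhibitor of signalling from growth factor receptors to RAS, and lies on chromosome 13 (chr13:80335976-80340951, minus strand, GENCODE 29 on GRCh38). It stood at 4.77 and 5.30 TPM with the 5p duplex, at 8.95 and 10.86 TPM with the 3p.1 duplex and at 8.79 and 9.60 TPM in control. Both 5p duplex libraries were lower than all 4 others, and the 3p.1 duplex and control libraries overlapped. Against control the log2 fold change of the 5p duplex was -0.76 (SE 0.138, 95% interval -1.09 to -0.42, unadjusted p = 0.00125, adjusted p = 0.101), which ranked 164 of 13400 genes by p. Against the 3p.1 duplex it was -0.85 (SE 0.138, 95% interval -1.18 to -0.52, adjusted p = 0.106), at rank 84. The difference from control was -0.76 between the libraries numbered 1 and -0.75 between those numbered 2. In fits that left out 1 library it stayed between -0.82 and -0.69, with limma adjusted p of 0.195 to 0.471. For the 3p.1 duplex against control the log2 fold change was 0.09 (95% interval -0.24 to 0.42, adjusted p = 0.966).

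The 3′UTR of SPRY2 (782 bases, the longest in GENCODE 29) held no 7mer or 8mer site and no 6mer for the 5p seed. Its promoter is shown because SPRY2 had the largest difference of the 10 genes. The window runs from 250 bases before to 50 bases after the RefSeq start (GRCh38.p14), and capitals mark 1 match to the ETS core CCGGAA and 2 matches to GCGNGGGCG, the word bound by EGR1, searched on both strands.
SPRY2 promoter, chr13:80341077-80341376, minus strand: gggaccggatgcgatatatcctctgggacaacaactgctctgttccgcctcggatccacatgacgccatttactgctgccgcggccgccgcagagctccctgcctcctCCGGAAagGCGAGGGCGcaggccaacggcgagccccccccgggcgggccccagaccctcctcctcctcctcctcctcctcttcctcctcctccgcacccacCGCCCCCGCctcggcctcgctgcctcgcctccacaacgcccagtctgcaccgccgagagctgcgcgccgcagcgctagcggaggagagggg
This window lies wholly upstream of the GENCODE 29 gene given above, because the RefSeq start lies outside that gene. The marked matches do not overlap each other. Of 9882 promoter windows of genes that averaged at least 1 TPM, 30.0% held CCGGAA and 15.7% held GCGNGGGCG, so neither word is rare, and a match is not evidence of binding.

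SPRY4, the other Sprouty gene, stood at 5.22 and 6.77 TPM with the 5p duplex, at 5.98 and 6.37 TPM with the 3p.1 duplex and at 4.85 and 6.55 TPM in control. The groups overlapped in every comparison. Its log2 fold change for the 5p duplex against control was 0.06 (95% interval -0.37 to 0.50, adjusted p = 0.952), an interval that does not reach the estimate of -0.76 for SPRY2; the difference between the genes was not tested. SPRY4-IT1, an RNA listed under its own symbol whose RefSeq position lies within SPRY4, stood at 0.42 to 1.2 TPM, and how reads were divided between them is not given in the sources used here.

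EGR1 encodes a zinc finger transcription factor and is one of the most responsive targets of ERK (chr5:138465490-138469315, plus strand). It stood at 3.22 and 3.29 TPM with the 5p duplex, at 5.66 and 5.54 TPM with the 3p.1 duplex and at 5.67 and 4.2 TPM in control. The 5p duplex libraries were the lowest of the 6, and control replicate 1 matched the 3p.1 duplex libraries while control replicate 2 lay between. The log2 fold change of the 5p duplex was -0.47 against control (SE 0.156, 95% interval -0.84 to -0.09, unadjusted p = 0.022, adjusted p = 0.406) and -0.63 against the 3p.1 duplex (95% interval -1.01 to -0.26, unadjusted p = 0.00583, adjusted p = 0.260). The value against control depended on which control library was used: it was -0.29 without control replicate 1 and -0.65 without control replicate 2. For the 3p.1 duplex against control the log2 fold change was 0.16 (95% interval -0.21 to 0.54, adjusted p = 0.934).

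The promoter of EGR1 is shown for its CArG boxes, the elements through which serum response factor and its ERK-activated partners work, given in capitals (RefSeq, GRCh38.p14, the same window).
EGR1 promoter, chr5:138465229-138465528, plus strand: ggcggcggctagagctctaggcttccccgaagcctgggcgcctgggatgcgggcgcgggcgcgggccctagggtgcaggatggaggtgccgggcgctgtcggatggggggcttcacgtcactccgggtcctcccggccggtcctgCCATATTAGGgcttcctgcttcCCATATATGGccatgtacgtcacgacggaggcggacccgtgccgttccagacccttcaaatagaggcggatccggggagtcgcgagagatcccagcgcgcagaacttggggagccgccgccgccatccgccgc
The boxes begin 105 and 83 bases before the start. A CArG box was present in 1.01% of the 9882 windows. Of the 7 genes of the 10 that matched the promoter table (EGR1, FOS, JUN, IER2, SPRY2, SPRY4 and DUSP6), it was present in the window of EGR1 alone. Boxes outside the window, or that depart from the word searched (CCWWWWWWGG, where W is A or T), were not sought. The other genes may therefore have such boxes. Of these 7 windows, 3 held GCGNGGGCG (EGR1, SPRY2 and SPRY4) and 2 held CCGGAA (IER2 and SPRY2). TGACG, the core of the cAMP response element, was held by 6, all but that of DUSP6, against 34.4% of all windows. The full element TGACGTCA was found in 0 of the 7, against 3.28% of all windows. TGANTCA, the word for the transcription factor AP-1, was also found in 0 of the 7, against 4.86%. A match to any of these words is not evidence of binding.

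JUN and FOS encode partners in the AP-1 transcription factor. JUN stood at 49.6 and 48.1 TPM with the 5p duplex, at 65.4 and 58.0 TPM with the 3p.1 duplex and at 49.6 and 50.5 TPM in control. Both 3p.1 duplex libraries were above the other 4, which lay between 48.1 and 50.5 TPM. For the 3p.1 duplex against control the log2 fold change of JUN was 0.29 (SE 0.0948, 95% interval 0.06 to 0.52, unadjusted p = 0.0196, adjusted p = 0.603), and for the 5p duplex against the 3p.1 duplex it was -0.33 (95% interval -0.56 to -0.10, adjusted p = 0.342). For the 5p duplex against control it was -0.03 (95% interval -0.26 to 0.19, adjusted p = 0.952), and its sign turned with other scalings (0.02 with quantile normalization and with equal library medians). FOS, whose RNA is known to last only briefly after a stimulus, stood at 0.22 and 0.41 TPM with the 5p duplex, 0.49 and 0.46 TPM with the 3p.1 duplex and 0.18 and 0.14 TPM in control. Both duplex groups were above control without overlap and all 6 values were under 0.5 TPM. In a fit with no filter on low values FOS had a log2 fold change of 0.18 for the 5p duplex and 0.35 for the 3p.1 duplex against control (limma adjusted p = 0.657 and 0.556).

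MYC, a transcription factor that drives growth and ribosome production, stood at 30.7 and 29.3 TPM with the 5p duplex, at 40.1 and 38.1 TPM with the 3p.1 duplex and at 33.3 and 33.9 TPM in control. None of the groups overlapped, with the 3p.1 duplex highest and the 5p duplex lowest. Its log2 fold change was -0.37 for the 5p duplex against the 3p.1 duplex (SE 0.0893, 95% interval -0.59 to -0.16, unadjusted p = 0.00513, adjusted p = 0.248), -0.16 for the 5p duplex against control (95% interval -0.37 to 0.06, adjusted p = 0.688) and 0.21 for the 3p.1 duplex against control (95% interval -0.0009 to 0.43, adjusted p = 0.726). IER2, which encodes a nuclear protein induced early after stimulation, was the most abundant of the 10 genes. It stood at 64.7 and 66.9 TPM with the 5p duplex, at 74.8 and 65.8 TPM with the 3p.1 duplex and at 78.0 and 65.1 TPM in control. All groups overlapped, and its log2 fold changes were -0.11, -0.02 and -0.09 for the 5p duplex and the 3p.1 duplex against control and the 5p duplex against the 3p.1 duplex (95% intervals within -0.40 and 0.27).

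No phosphatase gene was called in any comparison, and each interval left room for a difference in either direction. DUSP6, the cytoplasmic phosphatase specific to ERK, stood at 6.84 and 6.93 TPM with the 5p duplex, at 8.02 and 7.95 TPM with the 3p.1 duplex and at 7.35 and 8.97 TPM in control. The 5p duplex libraries were the lowest of the 6, with log2 fold changes of -0.21 against control (95% interval -0.52 to 0.10, adjusted p = 0.723; -0.34 without control replicate 1 and -0.08 without control replicate 2) and -0.19 against the 3p.1 duplex (95% interval -0.50 to 0.12, adjusted p = 0.755). DUSP5, a nuclear phosphatase of ERK, stood at 11.6 and 12.1 TPM with the 5p duplex, at 13.5 and 10.9 TPM with the 3p.1 duplex and at 12.7 and 13.7 TPM in control, with log2 fold changes of -0.14 and -0.11 for the 5p duplex and the 3p.1 duplex against control (adjusted p = 0.849 and 0.951). The DUSP5 level is uncertain because its pseudogene DUSP5P1 was listed at 5.68 to 10.01 TPM and the copies can share reads. Their sum was 19.0 and 19.6 TPM with the 5p duplex, 19.2 and 17.7 TPM with the 3p.1 duplex and 20.7 and 23.7 TPM in control.

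DUSP4, a nuclear phosphatase that acts on ERK and JNK, varied most between libraries of a group. It stood at 22.6 and 15.1 TPM with the 5p duplex, at 30.6 and 17.95 TPM with the 3p.1 duplex and at 25.1 and 18.7 TPM in control. In each group the library numbered 1 was higher, by 0.55, 0.74 and 0.41 on the log2 scale for the 5p duplex, the 3p.1 duplex and control. The log2 fold changes between groups were smaller than this: -0.22 for the 5p duplex against control (SE 0.295, 95% interval -0.93 to 0.49, adjusted p = 0.897) and -0.33 for the 5p duplex against the 3p.1 duplex (95% interval -1.04 to 0.38, adjusted p = 0.826). DUSP4 was the 1 gene of the 10 with a 7mer or 8mer site for the 5p seed, a 7mer in a 3′UTR of 3962 bases, against 14.6% of the 11744 tested genes with an annotated 3′UTR. SPRY4 held a 6mer only.

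**Figure D2:**
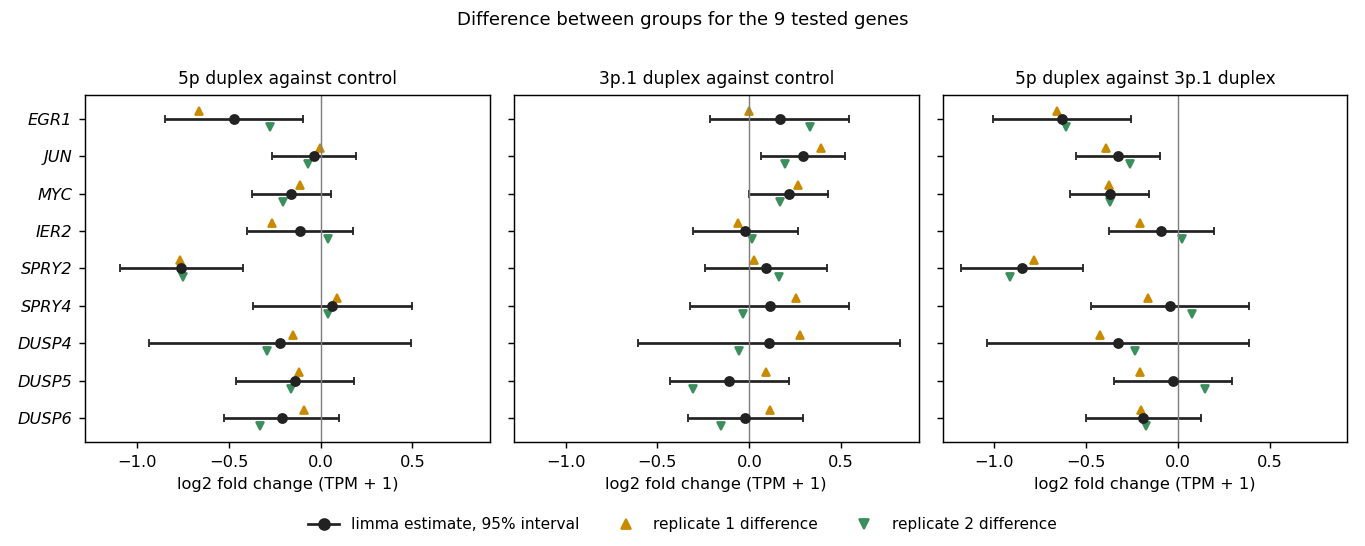
Log2 fold change (TPM + 1) of the 9 tested genes in the 3 comparisons; points with bars are limma estimates with 95% intervals, and triangles are the differences between libraries of the same number. SPRY2 lies at -0.76 against control and -0.85 against the 3p.1 duplex with both triangles near the estimate, and the interval of DUSP4 runs from -0.93 to 0.49 for the 5p duplex against control.

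The 3p arm was searched for at 3 starts of the hairpin, at the RefSeq start and 1 and 3 bases further in, since the labels do not place the 3p.1 strand. A 7mer or 8mer for the site GCAGTGG (RefSeq start) was present in 32.2% of 3′UTRs. Starting 1 base further in, the site is GGCAGTG, present in 30.9%. At the last start it is GGGGCAG, present in 28.1%. A 7mer or 8mer for at least 1 of these words was present in 6 of the 10 genes (EGR1, FOS, JUN, IER2, SPRY4 and DUSP4). The share of all 3′UTRs with at least 1 of the 3 words was not counted. It cannot be below the largest share of a single word, so the 6 of 10 cannot be set against the shares above. The 1 8mer among the 10 genes was in JUN, for the RefSeq start, where 4.5% of 3′UTRs held an 8mer. At the starts further in, JUN held no 7mer or 8mer. The level of JUN was highest with the 3p.1 duplex, and whether the site acts was not tested. The 8mer is shown in capitals within 20 bases.
JUN, chr1:58781050-58781057, minus strand (GRCh38): ggggttGCAGTGGAgaggga

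Across the 9 tested genes, the median log2 fold change was -0.158 for the 5p duplex against control, 0.108 for the 3p.1 duplex against control and -0.328 for the 5p duplex against the 3p.1 duplex. Over all 13400 genes it was -0.0304, -0.0334 and 0.00547. At an unadjusted p under 0.05 there were 2 of 9 genes (SPRY2 and EGR1, both lower) for the 5p duplex against control, where 9.16% of all genes passed. There was 1 of 9 (JUN, higher) for the 3p.1 duplex against control, where 6.86% passed, and 4 of 9 (SPRY2, EGR1, MYC and JUN, all lower) for the 5p duplex against the 3p.1 duplex, where 9.34% passed. Groups did not overlap for 6, 2 and 5 of the 9 genes, against 34.8%, 36.3% and 40.4% of all genes. All 9 had negative log2 fold changes for the 5p duplex against the 3p.1 duplex, where 48.7% of all genes did, but those of IER2, SPRY4 and DUSP5 were within 0.10 of 0. The comparisons share libraries, and the genes are not independent of each other.

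The 10 levels kept a wide range. IER2 (69.2 TPM over the 6 libraries), JUN (53.5 TPM) and MYC (34.2 TPM) were highest, followed by DUSP4 (21.7 TPM), DUSP5 (12.4 TPM), SPRY2 (8.05 TPM), DUSP6 (7.68 TPM), SPRY4 (5.96 TPM), EGR1 (4.60 TPM) and FOS (0.317 TPM). SPRY2 and DUSP6 were neighbours whose order depended on the group: with the 5p duplex SPRY2 was at 5.04 ± 0.375 TPM and DUSP6 at 6.89 ± 0.0636 TPM, while in control SPRY2 was at 9.20 ± 0.573 TPM and DUSP6 at 8.16 ± 1.15 TPM (SD, n = 2). With the 5p duplex the SPRY2 libraries (4.77 and 5.30 TPM) also overlapped those of SPRY4 (5.22 and 6.77 TPM), which were below SPRY2 in both other groups. IER2 stood above 79.8% and EGR1 above 19.4% of the tested genes.

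Profiles over the 6 libraries were compared as a description, since 6 points of 3 groups allow many genes to look alike. Among the 10 genes the closest pair was JUN and MYC (Pearson r = 0.928 of log2(TPM + 1)), followed by EGR1 with SPRY2 (r = 0.864) and EGR1 with MYC (r = 0.842), while SPRY4 with DUSP4 was the lowest (r = -0.635). Among 10624 genes that averaged at least 5 TPM, 148 had r above 0.95 with SPRY2, 52 with EGR1 and 26 with DUSP6. The closest to SPRY2 were LBH, ABHD17C and PFDN1 (r = 0.996, 0.995 and 0.995), to EGR1 KHSRP, SNHG16 and DEF8 (r = 0.997, 0.994 and 0.993), and to DUSP6 SYNE2, SP140L and UHRF1BP1 (r = 0.996, 0.976 and 0.973).

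LBH, a transcription cofactor gene, was at 43.1 and 46.5 TPM with the 5p duplex, 74.4 and 83.1 TPM with the 3p.1 duplex and 73.9 and 79.6 TPM in control. ABHD17C, a depalmitoylase gene, was at 10.4 and 11.4 TPM, 16.8 and 18.1 TPM, and 15.7 and 17.2 TPM in the same groups. Both carry a 7mer for the 5p seed in their 3′UTR, which SPRY2 lacks. So do DEF8, near EGR1, and UHRF1BP1, near DUSP6, with 1 and 2 sites, and 14.6% of all 3′UTRs held such a 7mer or an 8mer. At each of the 3 starts of the 3p arm, LBH held 2 7mer or 8mer sites, PFDN1 held 1 and ABHD17C held 0. DEF8 and UHRF1BP1 also held sites at each start. What any of these sites does was not tested. The 5p sites of the SPRY2 neighbours are shown in capitals within 20 bases (GRCh38, plus strand) because SPRY2 itself has none. The site of LBH is the full word GGGATGC. That of ABHD17C lacks the first G of the word and has an A after it, which was also counted as a 7mer.
LBH, chr2:30259225-30259231: gctctgGGGATGCcggggca
ABHD17C, chr15:80755605-80755611: aataaaGGATGCAtggatca
PFDN1 held a 6mer only for the 5p seed.

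**Figure D3:**
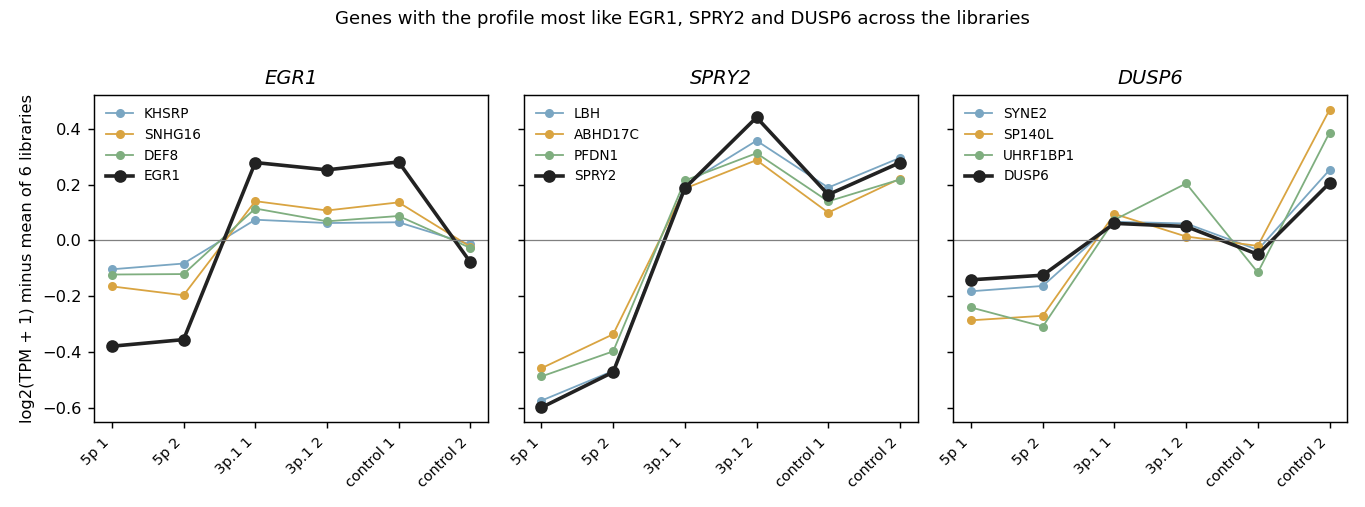
Log2(TPM + 1) minus the mean of the 6 libraries for EGR1, SPRY2 and DUSP6 (black) and, in colour, the 3 genes with the highest Pearson r to each; libraries run along the horizontal axis by group, and lines only join points of 1 gene. SPRY2 and its neighbours LBH, ABHD17C and PFDN1 are low in both 5p duplex libraries, and SP140L and UHRF1BP1 stand above DUSP6 in control replicate 2.

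The wider pathway was described with 5 lists that leave out the 10 genes. Of 24 other immediate early genes tested, none was called by limma in any comparison. Of all genes, 0.463% were called for the 5p duplex against control, 0.0149% for the 3p.1 duplex against control and 0.433% for the 5p duplex against the 3p.1 duplex. In the same order, 7, 5 and 4 of the 24 had an unadjusted p under 0.05, where 9.16%, 6.86% and 9.34% of all genes passed. IER5L, a relative of IER2 and IER5, stood at 2.10 and 2.98 TPM with the 5p duplex and at 6.25 and 4.63 TPM in control (log2 -0.86, adjusted p = 0.194). CSRNP1, a nuclear protein induced by growth signals, stood at 12.6 and 12.9 TPM with the 5p duplex, 12.8 and 11.4 TPM with the 3p.1 duplex and 16.5 and 18.2 TPM in control, with log2 fold changes against control of -0.41 and -0.49 (adjusted p = 0.276 and 0.422). NAB2, a corepressor that binds EGR1, stood at 9.51 and 10.9 TPM with the 5p duplex and at 13.2 and 13.9 TPM in control (log2 -0.38, adjusted p = 0.371). BTG2, an antiproliferative gene also induced by p53, had the widest gap between the duplexes of any tested gene of the lists. Its levels were 29.2 and 24.7 TPM for the 5p duplex and 14.1 and 9.86 TPM for the 3p.1 duplex (log2 fold change 1.12, adjusted p = 0.211). FOSL1, another AP-1 gene, stood at 198 and 175 TPM with the 3p.1 duplex and 144 and 153 TPM in control (log2 0.33, adjusted p = 0.675).

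Of 18 other feedback inhibitors tested, LRIG1, which encodes a membrane protein that promotes degradation of growth factor receptors, was the 1 gene called. The call was for the 5p duplex against control, where 0.463% of all genes were called. At an unadjusted p under 0.05 (limma), 1 gene was higher and 2 were lower in that comparison, where 9.16% of all genes passed. There were 1 and 1 for the 3p.1 duplex against control (6.86%), and 2 and 1 for the 5p duplex against the 3p.1 duplex (9.34%). LRIG1 rose to 41.7 and 38.4 TPM with the 5p duplex, against 20.3 and 23.2 TPM in control (log2 0.85, SE 0.107, adjusted p = 0.046). With the 3p.1 duplex LRIG1 stood at 45.6 and 43.0 TPM (log2 0.99 against control, adjusted p = 0.117). The call with the 5p duplex was lost in each of the 6 fits that left out 1 library (log2 0.76 to 0.94, adjusted p = 0.080 to 0.278). It was also lost with no filter on low values (adjusted p = 0.11), without a variance trend (0.0679) and in a fit of the 5p duplex and control libraries alone (0.146). DUSP10, a phosphatase of JNK and p38 kinases, stood at 9.09 and 8.99 TPM with the 5p duplex, 12.4 and 13.1 TPM with the 3p.1 duplex and 12.4 and 15.6 TPM in control (log2 -0.57 for the 5p duplex against control, adjusted p = 0.199). SPRED1, a relative of the Sprouty genes, stood at 9.24 and 10.1 TPM with the 5p duplex and 7.23 and 7.06 TPM with the 3p.1 duplex, which differ by 0.39 on the log2 scale (adjusted p = 0.336), the opposite direction to SPRY2.

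The list of ERK output had 16 tested genes, of which FOSL1 and PHLDA1 are also on the list of immediate early genes and are counted in both. None was called by limma, and 4, 1 and 2 had an unadjusted p under 0.05 in the same order of comparisons, beside 9.16%, 6.86% and 9.34% of all genes; the 1 was FOSL1. EPHA2, a receptor tyrosine kinase, and HBEGF, a ligand of EGFR, had log2 fold changes of 0.30 and 0.49 for the 5p duplex against control. In that comparison ETV5, an ETS factor, and SPHK1, sphingosine kinase, had -0.29 and -0.33 (limma adjusted p = 0.448, 0.523, 0.483 and 0.518 for the genes in this order). EMP1, a membrane protein gene, stood at 79.6 and 92.9 TPM with the 5p duplex and 61.6 and 59.4 TPM with the 3p.1 duplex, which differ by 0.50 on the log2 scale (adjusted p = 0.321). Genes of this list lay on both sides of 0, with a median log2 fold change of -0.02 for the 5p duplex against control.

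Of 24 genes of receptors, RAS and the ERK cascade, none was called by limma in any comparison, and 3, 1 and 4 had an unadjusted p under 0.05, beside 9.16%, 6.86% and 9.34% of all genes. PDGFRB, the platelet-derived growth factor receptor beta, stood at 17.8 and 19.7 TPM with the 5p duplex, 24.1 and 24.3 TPM with the 3p.1 duplex and 34.8 and 30.3 TPM in control. No groups overlapped, and its log2 fold change was -0.77 for the 5p duplex (adjusted p = 0.0636) and -0.41 for the 3p.1 duplex (adjusted p = 0.520) against control. FGFR1, a fibroblast growth factor receptor, stood at 82.1 and 89.5 TPM with the 5p duplex and 103 and 106 TPM in control (log2 -0.28, adjusted p = 0.358).

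The JNK and p38 cascade had 14 tested genes, none called by limma. An unadjusted p under 0.05 was found for 4 of them (all lower) with the 5p duplex against control, 0 with the 3p.1 duplex against control and 3 (all lower) with the 5p duplex against the 3p.1 duplex, beside 9.16%, 6.86% and 9.34% of all genes in either direction. MAPK14, the main p38 kinase, stood at 30.5 and 31.8 TPM with the 5p duplex, 41.4 and 44.2 TPM with the 3p.1 duplex and 42.5 and 46.0 TPM in control (log2 -0.49, adjusted p = 0.113, against control). MAP2K3 and MAP2K7, which activate p38 and JNK, and MAPK11, another p38 kinase, had log2 fold changes of -0.60, -0.45 and -0.34 for the 5p duplex against control (adjusted p = 0.350, 0.313 and 0.538).

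**Figure D4:**
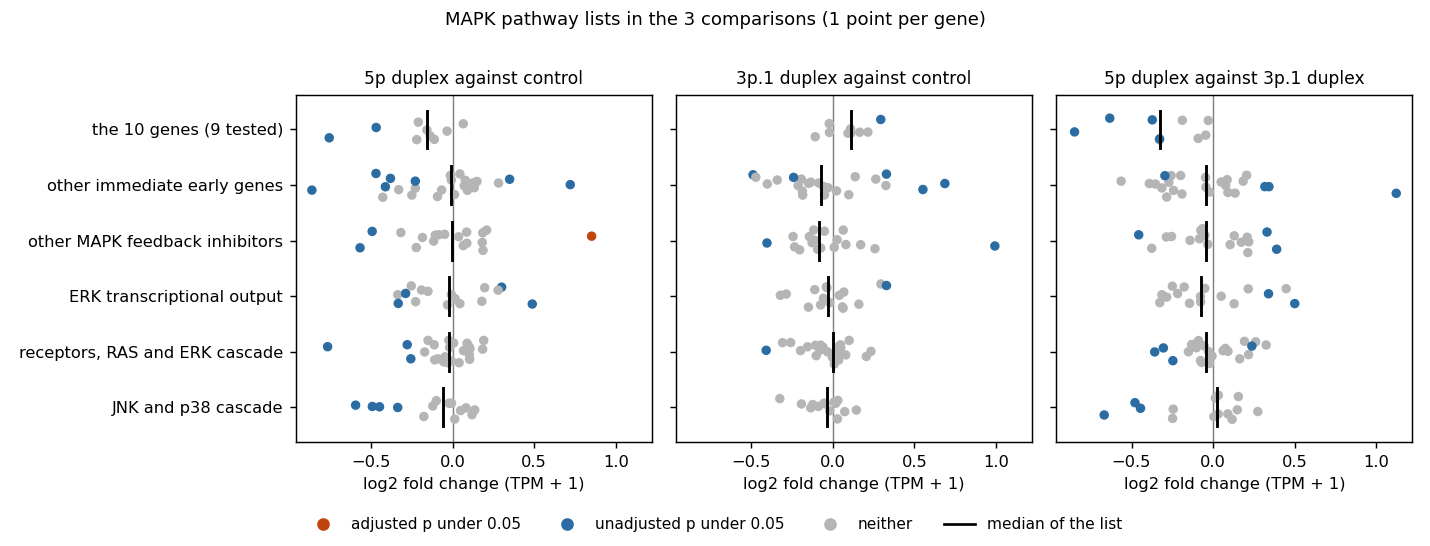
Log2 fold change (TPM + 1) of every tested gene of the 10 and of the 5 pathway lists in the 3 comparisons, 1 point per gene with random vertical spread; black bars are list medians, red marks an adjusted p and blue an unadjusted p under 0.05. LRIG1 at 0.85 in the first panel is the 1 red point, and the 9 tested genes lie below 0 in the third panel with a median of -0.328.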

How the data were processed

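Each library has a deposited table of TPM by gene symbol, made by the authors. RSEM and GRCh38 come per the submitters' processing notes; an aligner, annotation or version is not given in the sources used here. Oligo-dT enriched, stranded libraries were made, per the labels' protocols. TPM summed to about 1000000 in each library, so depth is unknown and no count test or counting interval was possible. Symbols listed more than once (21 to 23 a library) were summed, and symbols that a library lacked were set to 0 there.

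With limma 3.58.1 (R 4.3.3), log2(TPM + 1) of the 6 libraries was fitted by group, with a variance trend (3 residual and 3.38 prior degrees of freedom), keeping genes whose mean reached 1 TPM. Adjusted p-values are two-sided, from limma, Benjamini-Hochberg over all 13400 genes, with a threshold of 0.05; the fit was tested on simulated data. An exact permutation test of 2 against 2 libraries has a smallest p of 0.333 and was left out. SE belongs to log2 fold changes and SD to TPM.

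Sites were sought in the longest GENCODE 29 3′UTR of each gene, and motifs in RefSeq promoter windows. The 10 genes were named whatever their values; of each list, up to 4 genes with the lowest p in a comparison could be named, and the 3 genes most like EGR1, SPRY2 and DUSP6. The members and lists were chosen with earlier results of these data known. CCN1 and CCN2 were matched by their older symbols CYR61 and CTGF. The interferon-induced genes and the alternatives for LRIG1 were chosen after seeing the data. Alternatives changed the pseudocount, the filter, the libraries fitted, the variance trend, the scaling and the replicate term.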

Additional observations from a re-analysis of the deposited data

How the results depend on the processing

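No member was called by limma under any alternative without a term for replicate number. With a replicate block, SPRY2 was the 1 member called for the 5p duplex against control (adjusted p = 0.0205) and for the 5p duplex against the 3p.1 duplex (adjusted p = 0.0157), with the same log2 fold changes of -0.757 and -0.849; over all its alternatives its adjusted p ran from 0.0205 to 0.471 and from 0.0157 to 0.821. The labels do not say that the number marks a shared culture or day; deviations of same-numbered libraries correlated across genes at 0.265 to 0.383, and with 2 numbers such a sign is no proof of pairing. Calls over all genes moved from 62, 2 and 58 in the 3 comparisons (5p duplex against control, 3p.1 duplex against control, 5p duplex against 3p.1 duplex) to 367, 30 and 278 with the replicate block, 9, 0 and 5 with no filter, and 11, 18 and 19 with only the 2 groups compared. Without a variance trend they were 33 for the 5p duplex against control and 5 for the 5p duplex against the 3p.1 duplex. Leaving out 1 library gave 7 to 128, 5 to 94 and 7 to 26; each of the 6 libraries moved these counts by over 1.5 times, with the highest counts without control replicate 1 (128 and 94) and the lowest without 5p duplex replicate 1 (7 in both comparisons of the 5p duplex).

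The members' median log2 fold change moved to -0.110 and -0.101 for the 5p duplex against control, and to 0.194 and 0.165 for the 3p.1 duplex against control, with quantile normalization and with equal library medians. For the 5p duplex against the 3p.1 duplex it was -0.258 with no filter and with a minimum of 5 TPM, where a different set of members was tested. It ran from -0.191 to -0.136, 0.0708 to 0.149 and -0.408 to -0.183 when 1 library was left out. Signs turned for small differences: JUN for the 5p duplex against control (0.0226 and 0.0229), DUSP6 (0.0805 and 0.0343) and, in the last setting, IER2 (0.0352) for the 3p.1 duplex against control, with quantile normalization and with equal library medians. Leaving out 1 library turned signs too. For the 5p duplex against control the ranges were -0.119 to 0.249 for SPRY4, -0.493 to 0.0527 for DUSP4 and -0.241 to 0.0162 for IER2. For the 3p.1 duplex against control they were -0.0153 to 0.344 for EGR1, -0.150 to 0.107 for IER2, -0.0340 to 0.219 for SPRY2, -0.0740 to 0.294 for SPRY4, -0.261 to 0.478 for DUSP4, -0.255 to 0.0386 for DUSP5 and -0.150 to 0.106 for DUSP6. For the 5p duplex against the 3p.1 duplex they were -0.206 to 0.115 for SPRY4, -0.698 to 0.0405 for DUSP4 and -0.176 to 0.118 for DUSP5. Where a fit left 1 library in a group, that library was assumed to vary like the others. The cause of these shifts was not tested.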

Other observations

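Some genes of the pathway differed between libraries numbered 1 and 2 in the same direction in all 3 groups. Among the 103 tested genes of the members and lists, 6 were higher in replicate 1 and 2 higher in replicate 2 by at least 0.3 on the log2 scale in every group, 7.77% of them. Over all 13400 genes the share was 5.57% and the split ran the other way, with 246 higher in replicate 1 and 500 in replicate 2. The pathway genes named here were chosen after their values were seen. ATF3, a stress-induced transcription factor, was at 5.49 and 1.90 TPM with the 5p duplex, 6.80 and 2.73 TPM with the 3p.1 duplex and 4.55 and 2.34 TPM in control. ERRFI1, an inhibitor of EGFR, was at 127 and 81.1 TPM, 135 and 85.7 TPM, and 160 and 101 TPM in the same groups. DUSP4, JUNB, KLF10 and MAP2K6 were the others higher in replicate 1, and CTGF and PLAUR were higher in replicate 2.

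CTGF, a matrix-associated target of YAP, was at 208 and 299 TPM with the 5p duplex, 321 and 423 TPM with the 3p.1 duplex and 179 and 292 TPM in control. The labels give no batch, date or culture for the replicate numbers.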
